A study of Caenorhabditis elegans with 58 samples.

Results

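The strain described here carries an edited mir-35 gene under the alias mir-35(mut_3') and was set against wild type in 12 of the 58 small-RNA libraries of a Caenorhabditis elegans series. The libraries were chosen by their titles: replicates 1 to 3 of mut_3' in L1 and in embryos, and wild-type replicates 4 to 6 at the same stages, matched in order into 3 sets, with 3 libraries per group. The mut_3' animals were strain MCJ180 with the genotype mir-35(cdb2 cdb72), and the wild-type animals were strain N2. All were hermaphrodites sampled whole. Embryos came from bleached liquid cultures, and L1 (first-stage larvae) came from such embryos held overnight at 20°C without food, so every L1 library is one of starved animals. The alias is read as a change in the 3' part of the mir-35 guide. The bases changed, and what the cdb2 allele alone does, are not given in the sources used here. Counts per miRNA arm, with no molecular identifiers, totalled 4650926 to 16673524 per library.

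A miRNA hairpin gives 2 arms: the guide, which is kept in an Argonaute protein and pairs with targets mainly through a stretch near its 5' end called the seed, and the passenger, most of which is discarded. The mir-35 family, mir-35 to mir-42, shares a seed, is abundant in embryos and is lost around hatching. Loss of the whole family is lethal to embryos, and its members are largely redundant. The genes mir-35 to mir-41 stand next to each other among the miRNA genes of chromosome II in the RefSeq annotation, and mir-42 lies further along the same chromosome. Their guides are the 3p arms and are named below by the gene alone.

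The first question was what the edit left of mir-35 itself. The mut_3' guide was counted on its own sequence and was lower than the wild-type guide at both stages, while the mut_3' passenger was higher than the wild-type passenger at both stages. In L1 the guide had 359.6, 466.7 and 311.8 CPM (counts per library total, the totals being adjusted with TMM factors) in mut_3', against 2400, 1546 and 7554 CPM in wild type. In embryos it had 17050, 24729 and 18947 CPM in mut_3', against 183043, 193555 and 128891 CPM in wild type. At each stage every mut_3' library lay below every wild-type library, and the highest value within the wild-type L1 libraries was that of replicate 6. The log2 fold change of mut_3' over wild type was -3.34 in L1 (SE 0.65, adjusted p = 0.00119 by edgeR's quasi-likelihood test) and -3.06 in embryos (SE 0.64, adjusted p = 0.00367). The mut_3' guide stood at 9.90% of the wild-type level in L1 (95% interval 3.97 to 24.7%) and at 12.01% in embryos (4.87 to 29.6%). The guide rows of the strains are different sequences, as are the passenger rows. A difference in how each sequence is captured or assigned therefore cannot be told apart from a difference in amount. Both calls were near the threshold when 1 library was left out: without wild-type L1 replicate 6 the L1 difference was -2.38 and did not pass, and without mut_3' embryo replicate 1 the embryo difference was -2.95 and did not pass.

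The passenger went the other way. In L1 it had 59.2, 76.9 and 109.3 CPM in mut_3', against 1.134, 1.155 and 2.43 CPM in wild type. In embryos it had 431.5, 132.9 and 241.6 CPM in mut_3', against 5.06, 19.6 and 19.6 CPM in wild type. Here too the strains did not overlap at either stage, and the lowest mut_3' embryo library was still above the highest wild-type one. The log2 fold change was 5.77 in L1 (SE 0.83, adjusted p = 8.38e-06, edgeR) and 4.19 in embryos (SE 0.75, adjusted p = 0.000579). This difference depends on which rows are counted as the passenger: summed over the 5p sequences of all mir-35 alleles, it was 1.75 in L1 and 1.08 in embryos, and neither passed. The 5p row of the cdb4 allele alone held 141 to 212 counts in wild-type L1 libraries and 70 to 1136 in wild-type embryo libraries, more than the 12 to 21 and 33 to 140 counts on their own passenger row. The wild-type passenger row also held 14, 11 and 33 counts in mut_3' L1 libraries and 3, 26 and 13.5 in mut_3' embryo libraries. Its 21, 18 and 12 counts in wild-type L1 were close to those in mut_3' L1. The size of the L1 difference is therefore uncertain.

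**Figure D1:**
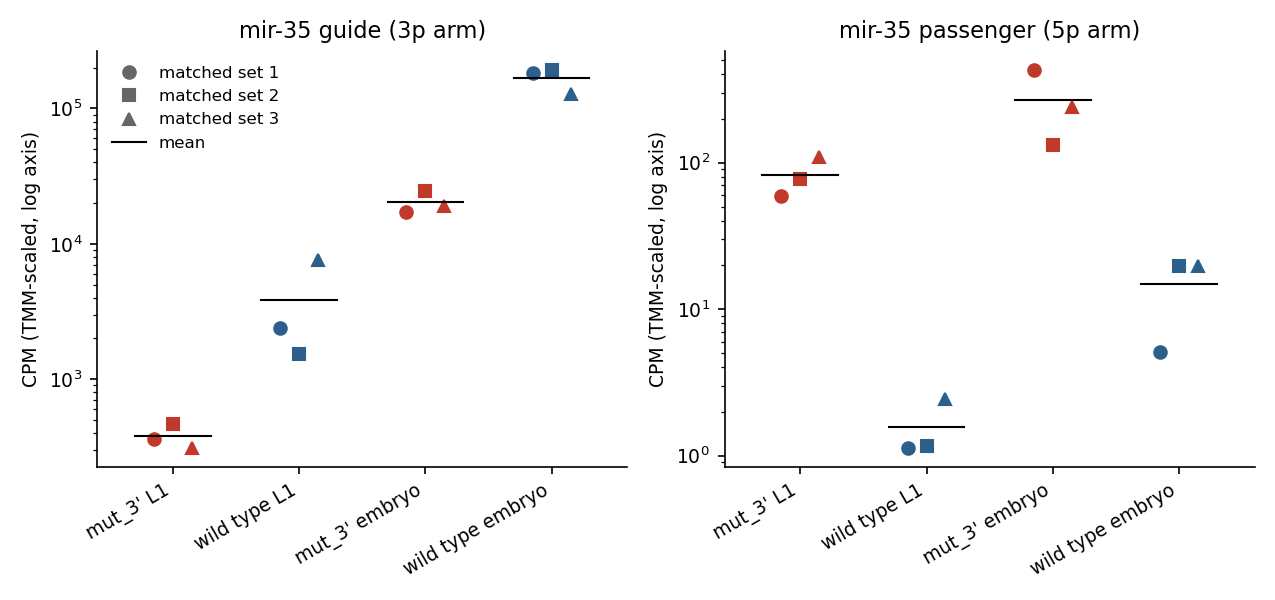
CPM of the mir-35 guide (left) and passenger (right) in each library on log axes, with the matched set as the marker and the group mean as a line. At each stage the guide points of mut_3' all lie below those of wild type and the passenger points all lie above, and wild-type L1 replicate 6 (set 3) is the highest of the L1 guide points at 7554 CPM.

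Each strain's libraries also held some reads of the other's sequence. The wild-type guide row had 1099, 643 and 2386 counts in mut_3' L1 libraries, beside 5369, 8760 and 3938 counts on their own guide row. It had 597, 1800 and 934.5 counts in mut_3' embryos, beside 111697, 121723 and 137152. The mut_3' guide row had 206, 157 and 131 counts in wild-type L1 and 52, 945 and 196 in wild-type embryos. Where these reads came from was not tested. The mut_3' L1 library of replicate 3 had the most wild-type reads beside its own.

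Within a library the ratio of guide to passenger needs no scaling, but for mir-35 it rests on different sequences in the strains. For mir-35 it was 6.07, 6.07 and 2.85 in mut_3' L1, against 2117, 1339 and 3111 in wild-type L1. In embryos it was 39.5, 186 and 78.4 in mut_3', against 36177, 9864 and 6582 in wild type. The strains stood far apart, by 8.77 on the log2 scale in L1 and 7.32 in embryos, with wild type higher, and a 2-sided exact permutation test gave p = 0.1 for each, the smallest that 3 against 3 libraries can give (0.8 adjusted over the 8 genes). The size of this gap depends on the rows used, since the wild-type L1 passenger row held only 12 to 21 counts. That row held 11 to 33 counts in mut_3' L1 libraries. With the sequences of all mir-35 alleles summed on each arm, the ratio was 3.75 to 6.47 in mut_3' L1, against 113 to 143 in wild-type L1, and 37.8 to 108 in mut_3' embryos, against 718 to 8179 in wild-type embryos. The difference was then -4.58 on the log2 scale in L1 and -4.94 in embryos (mut_3' minus wild type), and the strains still did not overlap. In the other 7 family genes the ratios of the strains overlapped at each stage. For mir-37, whose guide also outnumbers its passenger by a wide margin, the ratio was 932, 978 and 1041 in mut_3' L1, against 879, 655 and 1494 in wild-type L1. For mir-41 the arm named as the passenger was the more abundant one in all 12 libraries, with ratios of 0.208 to 0.476 in mut_3' embryos and 0.129 to 0.566 in wild-type embryos.

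**Figure D2:**
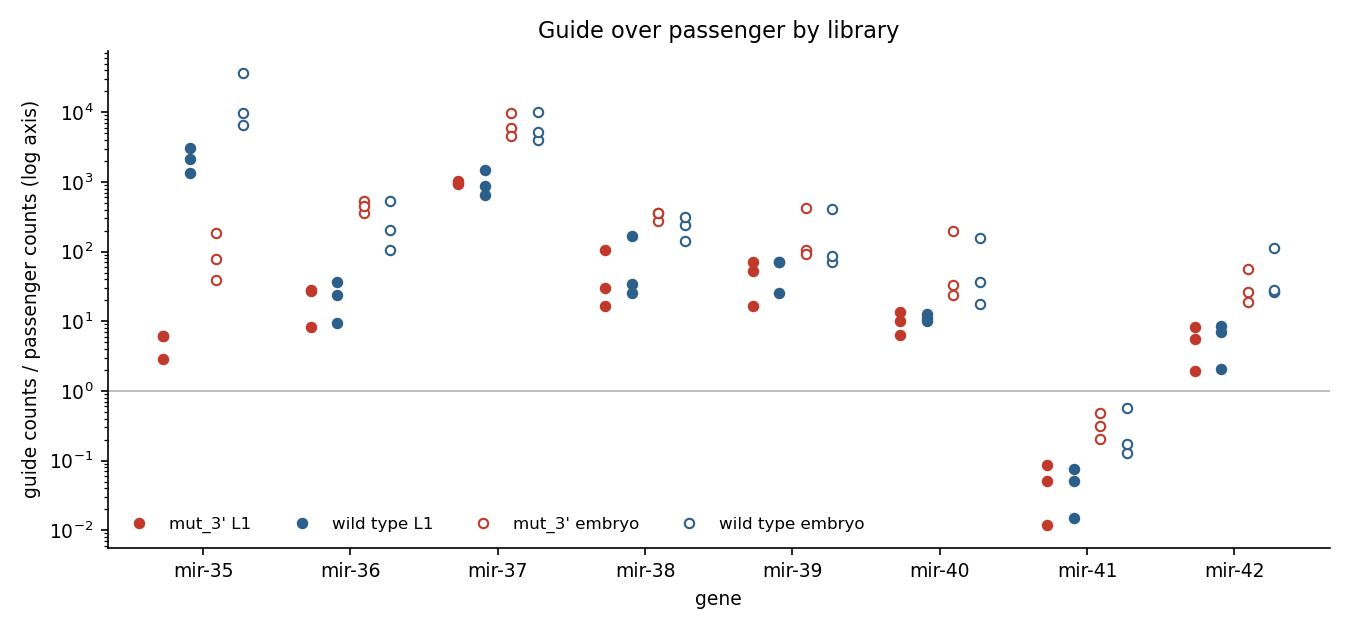
Guide counts over passenger counts for the 8 family genes, each strain's mir-35 on its own rows, 1 point per library on a log axis, with filled points for L1 and open points for embryos. For mir-35 the mut_3' points (2.85 to 186) lie below all wild-type points (1339 to 36177), and for the other 7 genes the points of the strains overlap at each stage.

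The next question was whether any other miRNA differed between the strains. In L1, 2 of 229 arms tested passed the threshold of adjusted p under 0.05 (0.873%), and in embryos 2 of 229 (0.873%), in each case the mir-35 guide and passenger. DESeq2 called 1 arm higher and 1 lower at each stage. At unadjusted p under 0.05 there were 4 arms in L1 and 5 in embryos. None of the 14 arms of mir-36 to mir-42 passed at either stage. The 7 unedited guides differed by -0.41 to 0.08 in L1 (median -0.19, against 0.06 over all arms) and by -0.11 to 0.70 in embryos (median 0.29, against 0.10 over all arms). The 95% intervals of these guides reached from -1.67 to 1.16 in L1 and from -1.37 to 1.64 in embryos.

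**Figure D3:**
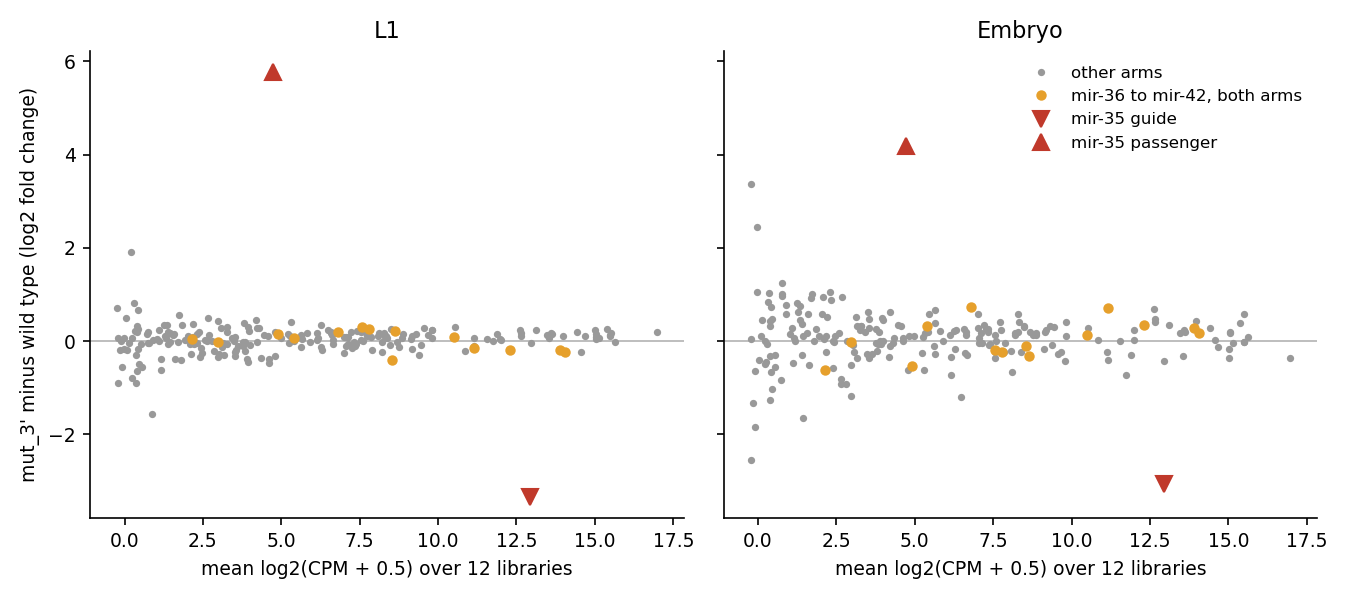
Log2 fold change of mut_3' over wild type for 229 arms in L1 (left) and embryos (right) against the mean log2(CPM + 0.5) over the 12 libraries. The mir-35 passenger (5.77 and 4.19) and guide (-3.34 and -3.06) stand apart from the other family arms, which lie near 0.

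Libraries of the same matched set shared much of their deviation from the group mean within a stage, so the strains were also compared within sets. The median SE over arms was 0.24 in L1 and 0.25 in embryos, against 0.52 in L1 and 0.53 in embryos without the sets. Again 2 of 216 arms passed at each stage (0.926%), the mir-35 guide (-2.93 with adjusted p = 0.0389 in L1 and -3.20 with adjusted p = 0.0161 in embryos, edgeR) and its passenger (5.82 and 3.99, with adjusted p = 0.00259 and 0.0161). At unadjusted p under 0.05 there were 6 arms in L1 and 25 in embryos. Of the 23 embryo arms beside mir-35, 10 were higher and 13 lower in mut_3'.

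The nearest neighbour of mir-35, mir-36, was among the 10. It had 22838, 28877 and 27439 CPM in mut_3' embryos, against 14961, 16055 and 17563 CPM in wild-type embryos. All 3 mut_3' libraries were above all 3 wild-type ones. The difference within sets was 0.56 (SE 0.16, adjusted p = 0.25) and did not pass. In L1 the order was not kept: mir-36 had 219, 207 and 304 CPM in mut_3', against 269, 250 and 287 CPM in wild type, and the groups overlapped. Among the 13 with lower values was mir-239a_5p, an arm of a miRNA linked to lifespan and stress resistance in the worm. It had 25, 15 and 5 counts in mut_3' embryos, against 62, 39 and 7 in wild-type embryos, and differed by -1.30 within sets (SE 0.31, adjusted p = 0.135).

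Outside the family, the arms with the smallest unadjusted p at a mean log2(CPM + 0.5) of at least 5 gave no call. In embryos mir-64_5p had 11879, 10377 and 11729 CPM in mut_3', against 7343, 5906 and 7934 CPM in wild type, which did not overlap (log2 0.68, SE 0.36, adjusted p = 0.999, edgeR). Its relative mir-65_5p had 13162, 15450 and 11970 CPM in mut_3' and 7983, 11896 and 9268 CPM in wild type, which also did not overlap (0.48, SE 0.29). On the lower side were mir-34_5p* (-0.73, SE 0.49), mir-4813_5p (-1.20, SE 0.88) and mir-785_3p (-0.36, SE 0.35). In L1 the like arms differed by 0.42 (mir-232_5p*), 0.28 (mir-76_3p), 0.25 (mir-234_3p), -0.29 (mir-53_5p) and -0.21 (mir-86_5p), with SEs of 0.33 to 0.50. None of these arms passed.

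The miRNAs of known tissues gave a check on the makeup of the animals. The body wall muscle miRNA mir-1 had 114303 to 234560 CPM in mut_3' L1, against 102215 to 180004 CPM in wild-type L1. In embryos it had 99639 to 111118 CPM in mut_3' and 99569 to 169941 CPM in wild type. The mir-124 of sensory neurons had 11.6 to 26.9 CPM in mut_3' L1 and 11.3 to 25.7 CPM in wild-type L1, and lsy-6, a miRNA of a gustatory neuron, had 88.4 to 96.6 and 66.0 to 92.1 CPM in the same groups. With TMM factors none of the 3 passed between strains or stages. With spike-in scaling 1 of the 3 was higher in L1 than in embryos in mut_3', beside 69 of all arms, and 0 in wild type, beside 67. The animals were sequenced whole, so fewer cells of a type and less RNA per cell cannot be told apart.

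The third question was how the stages differed in the edited strain. In mut_3', 45 of 229 arms were higher in L1 than in embryos (19.7%) and 56 were lower (24.5%). In wild type 49 were higher (21.4%) and 50 lower (21.8%). The split depends on the scaling: scaled by the spike-in RNAs, 69 arms were higher and 10 lower in mut_3', and 67 higher and 13 lower in wild type. In mut_3' it was 38 higher and 72 lower with TMM factors that leave out the mir-35 family, and 55 higher and 42 lower with the mir-35 allele sequences summed. All 8 family guides fell in each strain (with spike-in scaling mir-42 did not pass, at -1.06 in mut_3' and -0.998 in wild type), with a median log2 change of -5.78 in mut_3' and -5.45 in wild type, against -0.13 and 0.05 over all arms. The family guides held 0.707% ± 0.209 of all miRNA counts in mut_3' L1 and 30.4% ± 6.47 in mut_3' embryos (SD, n = 3 each). In wild type they held 1.21% ± 0.613 in L1 and 36.9% ± 5.93 in embryos. The ranges of the strains overlapped at both stages. Within each of the 3 matched sets the share was lower in mut_3', with differences of -7.79 to -5.26 percentage points in embryos and -0.958 to -0.183 in L1. An exact sign permutation test within sets gave p = 0.25 at each stage, the smallest that 3 sets can give. Fewer counts of the mir-35 guide raise every other share of the same total, so the 7 other guides were set against the counts without it. On that scale they differed by 5.26, 1.18 and 1.73 percentage points in the 3 embryo sets (mut_3' minus wild type) and by -0.127, -0.0575 and -0.270 in the 3 L1 sets. The part of mir-35 within the family did not overlap: it made up 2.94 to 9.51% of the family guides in mut_3' L1, against 24.3 to 38.1% in wild-type L1, and 4.08 to 8.54% in mut_3' embryos, against 32.1 to 42.7% in wild-type embryos.

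The edited guide fell by 5.74 on the log2 scale in mut_3' (SE 0.73, adjusted p = 6.75e-08, edgeR), and the wild-type guide fell by 5.46 in wild type (SE 0.72, adjusted p = 1.99e-07). With L1 and embryo libraries taken by number, the level in L1 was 2.11, 1.89 and 1.65% of that in embryos in mut_3', against 1.31, 0.799 and 5.86% in wild type. These percentages are a description, since L1 and embryo libraries of the same number deviated together only weakly in some sets (correlations of 0.126 to 0.417 in mut_3' and 0.0420 to 0.566 in wild type). Wild-type set 3, which holds L1 replicate 6, was above every mut_3' set and the other wild-type sets were below. The difference between the 2 changes was -0.28 (SE 0.84, 95% interval -1.98 to 1.42, adjusted p = 0.999, edgeR). As a ratio, the part of the guide that remained in L1 was 82.4% as large in mut_3' as in wild type (95% interval 25.3 to 268%). The sign of the difference was turned by single settings: it was 0.68 without wild-type L1 replicate 6 and 0.27 within matched sets, and neither passed. That L1 library also differed in its spike-in RNA, with spike-in counts at 0.380 of the miRNA counts, against 0.141 and 0.0941 in the other wild-type L1 libraries.

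Of the unedited guides, mir-36 fell most in mut_3' (log2 -6.76, SE 0.59), and by 5.92 (SE 0.57) in wild type. Its level in L1 was 0.960, 0.718 and 1.11% of that in embryos in mut_3', against 1.79, 1.56 and 1.63% in wild type. With spike-in scaling these values overlapped, at 2.44, 6.71 and 1.35% in mut_3' and 4.96, 8.66 and 1.65% in wild type. The difference of the changes was -0.84 (SE 0.65, adjusted p = 0.999, edgeR). The stage change of mir-37 was -5.86 in mut_3' and -5.45 in wild type, and that of mir-38 was -6.23 in mut_3' and -5.93 in wild type. For mir-39 it was -5.39 in mut_3' and -4.91 in wild type, for mir-40 -5.06 and -4.52, and for mir-41 -5.83 and -5.57 in the same order. The smallest fall was that of mir-42, the member outside the cluster, with -2.72 in mut_3' and -2.68 in wild type. Over the 7 guides the difference of the changes ran from -0.84 to -0.04, with a median of -0.41 against -0.09 over all arms, and none passed.

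The passengers had smaller median changes than the guides. In mut_3' 7 of 8 passengers fell, with a median of -2.45, and in wild type 7 of 8 fell, with a median of -3.12, beside 24.5% of all arms called lower in mut_3' and 21.8% in wild type. These calls depend on the scaling: with spike-in scaling 1 of 8 fell in mut_3', mir-37_5p* (-2.05), and 4 fell in wild type, those of mir-37, mir-38, mir-39 and mir-41. The exception in both was mir-42_5p*, at 0.18 (SE 0.68) in mut_3' and 0.73 (SE 0.69) in wild type, where it rose with spike-in scaling (1.78, adjusted p = 0.0240, edgeR). Without single libraries the calls of mir-36_5p*, mir-40_5p* and mir-41_5p* in mut_3' also ended (L1 replicates 1 and 2 for all 3, and embryo replicates 2 and 3 for mir-36_5p* and mir-40_5p*). In wild type those of mir-36_5p* and mir-40_5p* ended without embryo replicate 5, and that of mir-36_5p* without L1 replicate 5. The values closest to 0 were -1.43 for mir-36_5p* in mut_3' and -1.83 in wild type. The mir-35 passenger fell by 1.72 in mut_3' (SE 0.67, adjusted p = 0.0368, edgeR), the smallest of the 7 falls in that strain, and changed by -3.30 in wild type (SE 0.76, adjusted p = 0.000613). The fall in mut_3' did not pass when mut_3' embryo replicate 1 or 3 or L1 replicate 1 or 2 was left out, and was -1.20 without embryo replicate 1. Its difference between the strains was 1.58 (SE 0.97, unadjusted p = 0.11). The size of the wild-type change is uncertain, since its passenger row held about as many counts in mut_3' L1 libraries as in wild-type L1.

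**Figure D4:**
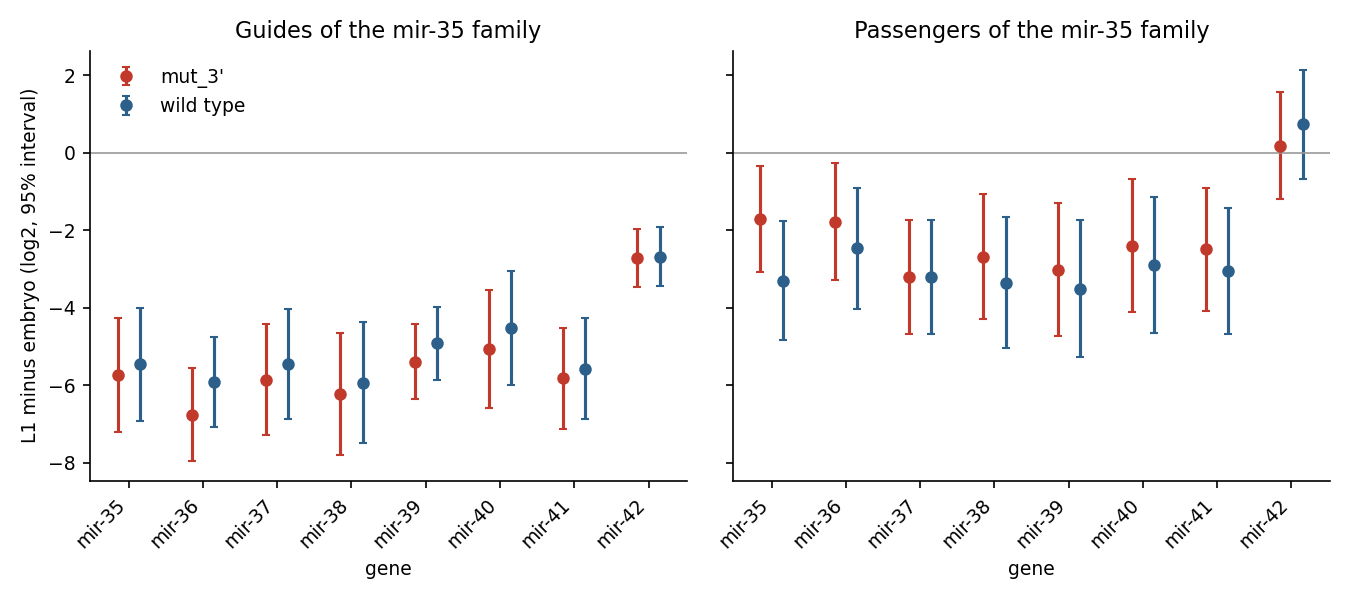
Log2 fold change of L1 over embryo for the guides (left) and passengers (right) of the 8 family genes, with 95% intervals from the fit, mut_3' left of wild type. All 8 guides lie below 0 in each strain, the intervals of the strains overlap for every arm, and mir-42 shows the smallest change on both sides.

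Over all 229 arms the stage changes of the strains, which share no library, were alike (Pearson's r = 0.946 and Spearman's rho = 0.951 across arms, which are not independent replicates). Of the arms called in mut_3', 86 were also called in wild type, which is 85.1% of 101 mut_3' calls and 86.9% of 99 wild-type calls, and all 86 had the same sign. The test of the difference called 0 of 229 arms (0%) by edgeR, with 1 at unadjusted p under 0.05, and DESeq2 called 0. Within matched sets 0 of 216 (0%) were called, with 15 at unadjusted p under 0.05. The median half-width of the 95% interval was 1.49 on the log2 scale in the full fit and 0.78 within sets. Smaller differences in the stage change would thus often have been missed for a typical arm. These intervals are not adjusted for the number of arms tested, so larger differences could also have been missed.

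Of the lists of related miRNAs examined, those with the most members that rose in L1 were the starvation and ageing list and the let-7 list. Counts of members are to be read against the share of all 229 arms, which was 19.7% higher and 24.5% lower in mut_3', and 21.4% higher and 21.8% lower in wild type, with medians over all arms of -0.13 and 0.05. The lists were chosen with earlier results of these data known, so this comparison is a description and not an independent test. With spike-in scaling no member of any list other than the mir-35 family lists fell in either strain. The first had 5 of 9 members higher and 1 lower in mut_3' (median 1.54), and 5 higher and 0 lower in wild type (median 1.80). Some of these calls ended when 1 library was left out. In wild type that held for mir-228_5p (embryo replicate 4 or 6, or L1 replicate 4 or 5) and mir-34_3p (L1 replicate 4, or embryo replicate 5 or 6), and in mut_3' for mir-239a_5p (L1 replicate 2 or embryo replicate 3). In it, mir-71_5p, which promotes the survival of starved L1, had 146432, 65429 and 176179 CPM in mut_3' L1, against 11198, 5636 and 2622 CPM in mut_3' embryos (log2 4.32, SE 0.86, adjusted p = 9.87e-05, edgeR). Each L1 library was above all embryo libraries. In wild type it rose by 4.09 (SE 0.85). Its other arm, mir-71_3p*, rose by 2.39 in mut_3' and 2.53 in wild type. The ageing miRNA mir-238_3p rose by 3.19 in mut_3' (SE 0.42) and by 2.75 in wild type, and mir-83_3p rose by 2.07 and 2.24. The lower member in mut_3' was mir-246_3p, at -1.13 (adjusted p = 0.0355), which had -0.74 in wild type and did not pass there. Its call in mut_3' ended without replicate 1 or 2 of either stage. The list counts mir-34 by its 3p arm, which had 3.46 to 9.04 CPM in mut_3' L1. The 5p arm, named as the passenger, was the more abundant, at 252 to 412 CPM in mut_3' L1. That arm, mir-34_5p*, rose by 4.77 in mut_3' and 3.98 in wild type.

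The let-7 list, which joins let-7 and its relatives to lin-4 and holds regulators of larval timing, had 4 of 8 members higher and 1 lower in mut_3' (median 2.16), and 5 higher and 2 lower in wild type (median 1.76). The 1 or 2 of 8 lower were near the share over all arms. The arm mir-84_5p, which acts with let-7 in larval timing, had 911, 979 and 811 CPM in mut_3' L1, against 90.1, 113 and 46.1 CPM in mut_3' embryos (3.44, SE 0.42), and rose by 3.11 in wild type. The lin-4 relative mir-237 rose by 4.44 in mut_3' and 4.07 in wild type. The member mir-794_5p rose by 4.90 in mut_3', with 343 to 772 counts in L1 and 2 to 19 in embryos, and by 3.95 in wild type. For lin-4_5p the rise was 3.64 in mut_3' and 1.81 in wild type. It had 112, 119 and 48 counts in mut_3' L1, against 1, 7 and 0 in mut_3' embryos, so the size of that rise rests on few reads. Without embryo replicate 2 it was 6.13. In wild type it had 15 to 107 counts in L1, against 6 to 12 in embryos, and its call ended without embryo replicate 4 or L1 replicate 5. The member that fell in both was mir-48_5p, by 1.80 in mut_3' and 1.76 in wild type.

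Among called arms past the same level of 5 whose stages did not overlap, the other rises of the largest size in mut_3' were those of mir-34_5p* (4.77, SE 0.56), mir-230_3p (4.00), mir-239a_3p* (2.32), mir-232_5p* (2.32), mir-45_5p* (2.25) and mir-1821_3p (2.11). In wild type they were joined by mir-63_3p (2.32) and mir-83_3p (2.24) in place of mir-239a_3p* and mir-45_5p*. Beyond the mir-35 family, the largest falls among such arms in mut_3' were those of mir-4813_5p (-3.86, SE 0.98) and mir-86_3p* (-2.78, SE 0.53), and in wild type those of mir-4813_5p (-5.29, SE 1.05) and mir-74_5p* (-3.09). With spike-in scaling mir-86_3p* was -0.95 and mir-74_5p* -1.46, and neither passed. Without wild-type embryo replicate 5, mir-74_5p* was -1.59 and did not pass. In both strains the embryo values of mir-4813_5p spread widely, from 235 to 563 CPM in mut_3' and from 180 to 1946 CPM in wild type.

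**Figure D5:**
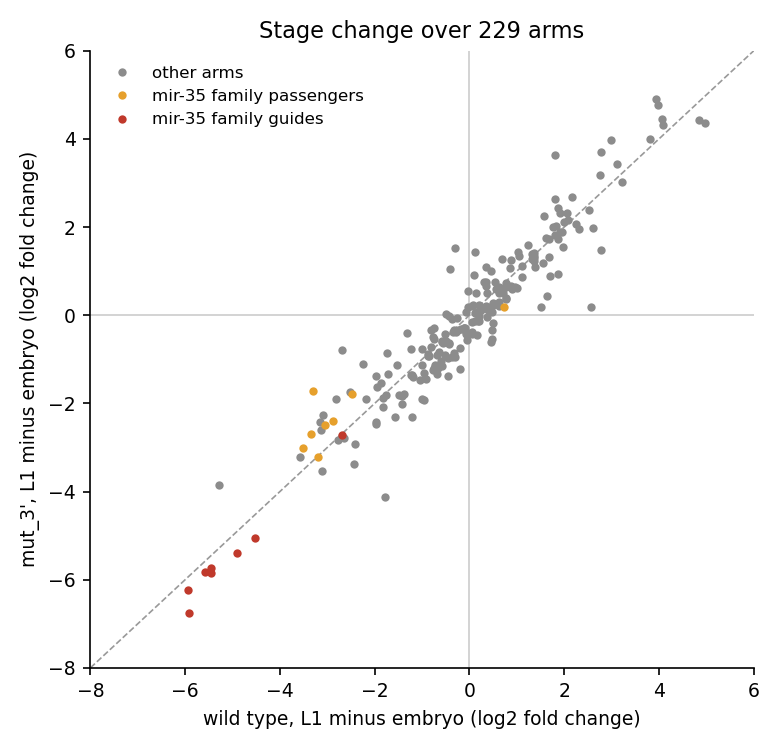
Log2 fold change of L1 over embryo in mut_3' (vertical) against wild type (horizontal), 1 point per arm, with the line of equal change dashed. Of the 229 arms, mir-2210_3p (6.34 in mut_3'), mir-2210_5p* (6.71 in mut_3') and mir-77_5p* (6.16 in wild type) lie beyond the axes and are not shown. Points follow the line (r = 0.946), and the family guides other than mir-42 lie lowest of all arms in mut_3', at -5.06 or below.

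In the other families the counts of called members were small, and most were near the share over all arms (19.7% higher and 24.5% lower in mut_3', 21.4% and 21.8% in wild type), so they are no result about a family. The mir-51 family, which is also needed in the embryo, had 1 of 6 members lower in each strain, mir-51_5p (-1.88 in mut_3' and -1.83 in wild type). In the mir-58 family, abundant and widely expressed, 1 of 5 rose and 1 fell in mut_3' and 1 rose in wild type, with mir-80_3p at 1.23 in mut_3' and 1.35 in wild type. The call of mir-80_3p ended without any of 3 libraries in each strain (mut_3' embryo replicate 2 or 3 or L1 replicate 3, wild-type embryo replicate 4 or 5 or L1 replicate 6), and it was 0.53 at the lowest in mut_3' and 0.85 in wild type. In the mir-64 family 1 of 5 rose in each strain, mir-63_3p, while 2 fell in mut_3' and 1 in wild type. In the mir-44 family 1 of 4 fell in each, mir-247_3p, at -2.02 in mut_3' and -1.43 in wild type, where the call ended without replicate 6 of either stage. The mir-2 family had 1 of 4 lower in mut_3', mir-43_3p at -1.46 (-0.80 and not passing without embryo replicate 1), and 0 of 4 in wild type, where it had -0.91. Of 7 arms of miRNAs linked in other work to EBAX-1, a receptor in miRNA degradation, 1 rose and 2 fell in mut_3', and 2 rose and 1 fell in wild type. No member of these lists, of the starvation list or of the let-7 list passed in the strain comparison at either stage or in the difference of the changes.

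A second edited strain, mir-35(mir-82_3') with the genotype mir-35(cdb2 cdb 78) and 3 libraries per stage, was set beside mut_3'. No arm passed the adjusted threshold between these strains. The mir-35 passenger at both stages, and the guide in embryos but not in L1, had higher values in every mut_3' library. The guide of mir-35(mir-82_3') had 126, 265 and 582 CPM in L1, and 6867, 9062 and 7618 CPM in embryos. The mut_3' guide, at the CPM given above, differed from it by 0.23 in L1 (SE 0.59) and by 1.37 in embryos (SE 0.60, unadjusted p = 0.0300, adjusted p = 1, edgeR). All 3 mut_3' embryo libraries were above all 3 of the other strain, and the L1 libraries overlapped. The passenger of mir-35(mir-82_3') had 51.6, 4.32 and 16.6 CPM in L1, and 49.8, 73.9 and 98.8 CPM in embryos. The mut_3' passenger was above all of these at the same stage, by 1.77 in L1 (SE 0.68, unadjusted p = 0.0131, adjusted p = 0.939, edgeR) and by 1.86 in embryos (SE 0.68, unadjusted p = 0.00931, adjusted p = 1). By library totals, the cdb78 passenger row also held 1.85 to 14.6 CPM in wild-type L1 and 3.06 to 12.1 CPM in mut_3' L1. In wild-type embryos it held 4.64 to 40.9 CPM. The values of 4.32 and 16.6 CPM in mir-35(mir-82_3') L1 were near that level, so the size of the L1 difference is uncertain. In L1, 8 of the 12 arms at unadjusted p under 0.05 were family arms, the mir-35 passenger and 7 that were lower in mut_3', of which 6 were passengers. None of the 7 remained at that level without mir-35(mir-82_3') L1 replicate 1, and 1 did without mut_3' L1 replicate 1 or 2. The arm mir-39_5p* had 45.7, 26.7 and 182 CPM in mut_3' L1, against 713, 30.6 and 186 CPM in mir-35(mir-82_3') L1, where replicate 1 was the highest. Without that library the mir-35 passenger was the only family arm among 3 arms at unadjusted p under 0.05, and the median of the 7 unedited passengers was -0.20, against -1.72 with it. By edgeR 0 of 229 arms (0%) were called in L1, 0 of 229 (0%) in embryos with 3 at unadjusted p under 0.05, and 0 of 229 (0%) in the difference of the changes with 4. Compared within same-numbered sets, 0 of 214 (0%) were called in L1 with 9 at unadjusted p under 0.05, 0 of 214 (0%) in embryos with 3, and 0 of 214 (0%) in the difference with 3. Within sets the guide differed by 1.06 (SE 0.42) and the passenger by 1.43 (SE 0.74, unadjusted p = 0.0824) in embryos, and the passenger by 2.26 (SE 0.83, unadjusted p = 0.0224) in L1. DESeq2 was not run on this comparison. A p that missed the threshold does not show that these edited strains were alike.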

How the data were processed

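The authors deposited a table of estimated counts per miRNA arm, unscaled, with 296 lines: 276 miRNA arms, 10 spike-ins and 10 edited mir-35 sequences. Of its values, 510 end in 0.5, and all were rounded to whole counts. The submitters' processing notes name HTSeq 0.13.5, SAMtools 1.13, Bowtie2 2.4.4, cutadapt 3.4 and an unversioned DESeq2, and no genome build. Each strain's mir-35 was taken from its own sequence (mut_3' from the cdb72 lines). RefSeq WBcel235 gave gene order only.

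All arms were fitted with edgeR 4.0.16 (quasi-likelihood, robust, TMM factors, R 4.3.3) over the 42 allele libraries, with 1 coefficient per group and no covariate. filterByExpr (minimum count 10, total 15) kept 229 arms, and Benjamini-Hochberg adjustment ran over all of them at 0.05. The biological coefficient of variation was 0.448. DESeq2 1.42.0 was an alternative. Exact permutation tests were 2-sided. Tables and figures used Python 3.11.15. The script was tested on simulated data.

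The number of libraries and the spread between them limited the precision, and for arms with few reads so did the counts. Nothing in the labels says that replicates were separate cultures, so p-values measure the spread between these libraries. Replicates differed by more than counting error.

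Named arms were both arms of mir-35 to mir-42, up to 10 rises and 10 falls per stage change (5 per strain comparison) of the largest size among called arms whose groups were apart and whose mean log2(CPM + 0.5) was 5 or more, or else the 3 smallest p-values per direction, with list members as examples. The arm mir-239a_5p was chosen after its values were seen. The members and the 11 lists were chosen with earlier results of these data known.

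Pairing came from the data: same-numbered libraries of both strains deviated together within a stage (correlations over 114 arms of 0.748, 0.843 and 0.914 in L1 and 0.878, 0.844 and 0.747 in embryos). The fit with matched sets as blocks within each stage was added after this was seen, as were the fit of same-numbered sets against mir-35(mir-82_3') and the summed guide to passenger ratio. Alternatives were spike-in scaling, RLE factors, TMM factors computed with the family left out, library totals, no filter, a minimum of 50 counts, the 12 libraries alone, a replicate block, all 6 wild-type libraries per stage, summed allele sequences and each library left out.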

Additional observations from a re-analysis of the deposited data

Results flagged for a closer look

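Sequences of other alleles were counted in libraries that should lack them. In CPM by library totals, the wild-type mir-35 guide row reached 168 in mut_3' L1 libraries, whose own guide had 278 to 525, and 299 in mut_3' embryo libraries, whose own guide had 14930 to 20210. The mut_3' guide row reached 91.3 in wild-type embryo libraries, whose own guide had 116039 to 184783. The 5p row of the cdb4 allele reached 110 in wild-type embryo libraries, above the 5.11 to 17.6 of their own passenger. The source of these reads was not tested.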

How the results depend on the processing

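Stage calls depended most on the scale. With spike-in scaling the median of all arms moved by 1.53 in mut_3' and 1.54 in wild type, so 69 arms were higher and 10 lower in mut_3', 13 were lower in wild type, the mir-35 passenger changed by -0.40 in mut_3' and -1.86 in wild type without passing, and 8.33% of the mut_3' guide remained in L1 (SD 8.23, with sets at 5.36, 17.6 and 2.00%, the second with the embryo library richest in spike-ins), against 4.66% in wild type. With TMM factors it was 1.88% in mut_3' and 2.66% in wild type, and by library totals 2.16% in mut_3'. The passenger's fall in mut_3' also did not pass with no filter (-1.65) or summed allele rows (-1.24). Summed rows left 0 arms higher between strains in L1 and in embryos, with the passenger at 1.75 and 1.08, and the log2 ratio of guide to passenger at -4.58 in L1 and -4.94 in embryos. The difference between the guide's stage changes turned to 0.44 with spike-in scaling, 0.40 with summed rows, 0.0652 with a replicate block over all stages and 0.27 with a replicate block within stages. These replicate blocks changed no call of the guide, the passenger or the strain counts. Other turned values, none of them called, were mir-42_5p* in mut_3' (-0.22, TMM factors without the family), mir-785_3p in embryos (0.00117, all 6 wild-type libraries) and mir-234_3p in L1 (-0.00495, spike-in scaling). The cause of each was not tested.

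With each library left out in turn, lower calls between strains ran from 0 to 1 in L1 and 0 to 2 in embryos. The guide difference ran from -3.71 to -2.38 in L1 and -3.23 to -2.95 in embryos, and that of its stage changes from -0.66 to 0.68. The passenger's stage change in mut_3' ran from -2.04 to -1.20. That of mir-42_5p* ran from -0.41 to 0.53 in mut_3' and -0.0201 to 1.06 in wild type. Between strains mir-53_5p ran from -0.52 to 0.15 and mir-86_5p from -0.36 to 0.10 in L1, and mir-785_3p from -0.63 to 0.28 and mir-4813_5p from -1.68 to 0.0507 in embryos. The difference of stage changes of mir-4813_5p ran from -0.25 to 2.73. The 3 libraries per group and a coefficient of variation of 0.448 limit what could be detected.

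Against mir-35(mir-82_3'), same-numbered libraries deviated together in embryos (correlations of 0.7996, 0.396 and 0.405) but not in set 1 of L1 (-0.339, against 0.845 and 0.433 in sets 2 and 3). Pairing by number was therefore not seen in every set, and the reason was not tested. The replicate block changed no call there, and turned the uncalled difference of the passenger's stage changes to 0.83. Without 1 library that difference ran from -0.60 to 1.14, and the L1 difference of the guide from -0.16 to 0.95.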

Other observations

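Apart from the edited miRNA, the embryo libraries gave more small differences within matched sets than the L1 libraries did. To describe them with independent libraries, 214 arms were classed by the stage change in wild-type replicates 1 to 3, which enter no strain difference here. In embryos, the 40 arms that rise in L1 had a median difference of -0.19 (mut_3' minus wild type) and 26 of them were lower in mut_3', among them mir-238_3p at -0.44 (SE 0.15). The 54 arms that fall in L1 had a median of 0.08 in embryos, with 33 higher in mut_3'. The remaining 120 arms had a median of -0.03. In L1 the medians were 0.18 for the 40 risers, of which 6 were lower, and 0.08 for the 54 fallers, against 0.13 over all 214 arms. Over the 216 arms compared within sets, 105 (48.6%) had higher values in mut_3' in embryos and 153 (70.8%) in L1. The counts of risers and fallers are to be read against these shares. Across arms the embryo difference and the stage change had r = -0.231, and the L1 difference had r = 0.173. Arms are not independent, no test was run, and the pattern was described after the values were seen.

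The mut_3' embryo libraries differed among themselves in spike-in RNA, with spike-in counts at 0.329, 0.792 and 0.305 of the miRNA counts, against 0.334, 0.313 and 0.360 in wild-type embryos. The spike-in named miR166a took 43.3 to 69.2% of spike-in counts over the 12 libraries. With background reads subtracted, the mut_3' guide level in L1 was 1.80% of that in embryos, against 1.88% without.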
